A study of Mus musculus with 4 samples.

Results

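Collecting duct principal cells are the cells that reabsorb water and sodium in the last part of the renal tubule. They were taken from 2 droplet single-cell RNA libraries of whole newborn mouse kidneys. One library came from a Six2CreTet2/3f/f mouse, which carries floxed Tet2 and Tet3 alleles and the Six2-driven Cre recombinase, and is called floxed. The other came from a Six2Cre mouse without those floxed alleles and is called control; both carry Six2Cre. A barcode was a member when it had at least 1000 UMIs (unique molecular identifiers, which count RNA molecules), at least 500 genes and under 15% mitochondrial UMIs. It also needed at least 5 UMIs of Aqp2, at least 2 detected genes among Aqp3, Fxyd4, Gata3, Hsd11b2, Krt19 and Plet1, at most 2 UMIs of Slc12a1 and at most 1 of Atp6v1g3. This gave 1059 members of 36833 kept barcodes, namely 532 of 15645 in floxed and 527 of 21188 in control.

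As background, principal cells descend from the ureteric bud, while Six2 marks the nephron progenitors, so the Cre is driven by a promoter of a different lineage. Vasopressin acts through the receptor Avpr2 and cAMP to place the water channel Aqp2 in the apical membrane, and water leaves the cell through Aqp3 and Aqp4. The epithelial sodium channel, built from Scnn1a, Scnn1b and Scnn1g, takes up sodium under aldosterone, and Hsd11b2 inactivates glucocorticoids so that aldosterone can reach its receptor. Intercalated cells share the duct and secrete acid or base.

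There was 1 library per genotype. Differences therefore have no replicate check and no p-values, and intervals cover counting error only. Genotype and library cannot be told apart. Median depth of the members was 10285 UMIs and 3251 genes in floxed, and 13836 UMIs and 3905 genes in control. Summed over members, the libraries held 7096667 and 9762233 UMIs in floxed and control, and levels are given as CPM, the UMIs of a gene per 1000000 UMIs of these sums. The libraries shared 174 barcodes, 99 of them kept and 0 of them principal cells.

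The members were chosen by their own counts of Aqp2, Aqp3, Fxyd4, Gata3, Hsd11b2, Krt19, Plet1, Slc12a1 and Atp6v1g3, so these genes are given as a description only. Aqp2 (GRCm38, chromosome 15, 99579056 to 99584545) stood at 3824 CPM in floxed and 3107 CPM in control, with a median of 37 and 41 UMIs per cell. In all other kept barcodes Aqp2 was at 73.2 and 119 CPM, and an Aqp2 UMI occurred in 11.6% and 21.8% of endothelial barcodes, which should lack the gene, at median depths of 3537 and 4664 UMIs. Fxyd4, a regulator of the sodium pump, was at 1659.8 CPM in floxed and 991 CPM in control, and the transcription factor Gata3 at 403 and 369 CPM. Exactly 5 Aqp2 UMIs were found in 16 floxed and 18 control members. Just outside, 30 floxed and 46 control kept barcodes had exactly 4. Among genes that the gate did not use, Aqp4, Elf5 and S100a14 stood 26.3-fold, 24.6-fold and 23.5-fold above all other barcodes, pooled over both libraries. They were among the 15 leading genes, of which the highest was Crisp1, a cysteine-rich secretory protein, at 49.6-fold. The intercalated gate, which set no limit on Aqp2, held them too. Aqp4 was at 211 CPM in floxed and 260 CPM in control there, against 244 and 189 CPM in principal cells. Elf5 was at 94.9 and 79.2 CPM there, and S100a14 at 63.7 and 78.5 CPM. These 3 genes thus set the members apart from most barcodes, but not from that gate.

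The promoter of Aqp2 is shown beside that of Fxyd4 because these were the most abundant genes of the gate. Both are from RefSeq (GRCm38.p6) and span 250 bases before to 50 bases after the start used. Aqp2 is at chr15:99578806-99579105 on the plus strand, and Fxyd4 at chr6:117937286-117937585 on the minus strand. The RefSeq span of Fxyd4 is 117933558 to 117937714, so its window lies inside the gene and not before its outer end. Capitals mark AGATAA, the GATA factor motif, and TGACG, the core of the cAMP response element, each searched on both strands.
Aqp2: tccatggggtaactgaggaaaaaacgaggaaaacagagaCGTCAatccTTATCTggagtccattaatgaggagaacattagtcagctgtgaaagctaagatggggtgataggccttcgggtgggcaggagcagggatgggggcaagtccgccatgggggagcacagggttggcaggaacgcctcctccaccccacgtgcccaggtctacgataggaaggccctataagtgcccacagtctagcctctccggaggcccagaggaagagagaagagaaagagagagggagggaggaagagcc
Fxyd4: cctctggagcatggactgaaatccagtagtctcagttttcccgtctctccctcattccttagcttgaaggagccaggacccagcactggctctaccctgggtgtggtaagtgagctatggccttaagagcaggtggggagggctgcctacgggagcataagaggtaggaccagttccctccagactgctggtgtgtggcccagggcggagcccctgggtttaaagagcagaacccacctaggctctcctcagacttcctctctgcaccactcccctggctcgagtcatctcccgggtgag
The Aqp2 window held each motif once, at 211 bases (TGACG) and 202 bases (AGATAA) before the start, with no overlap between them. The Fxyd4 window held neither. Of 32851 promoters in the table, 20.8% held TGACG and 11.2% held AGATAA, so a match is common and is a description only. The Aqp2 window had 8 CG dinucleotides and the Fxyd4 window 5, against a median of 7.

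**Figure D1:**
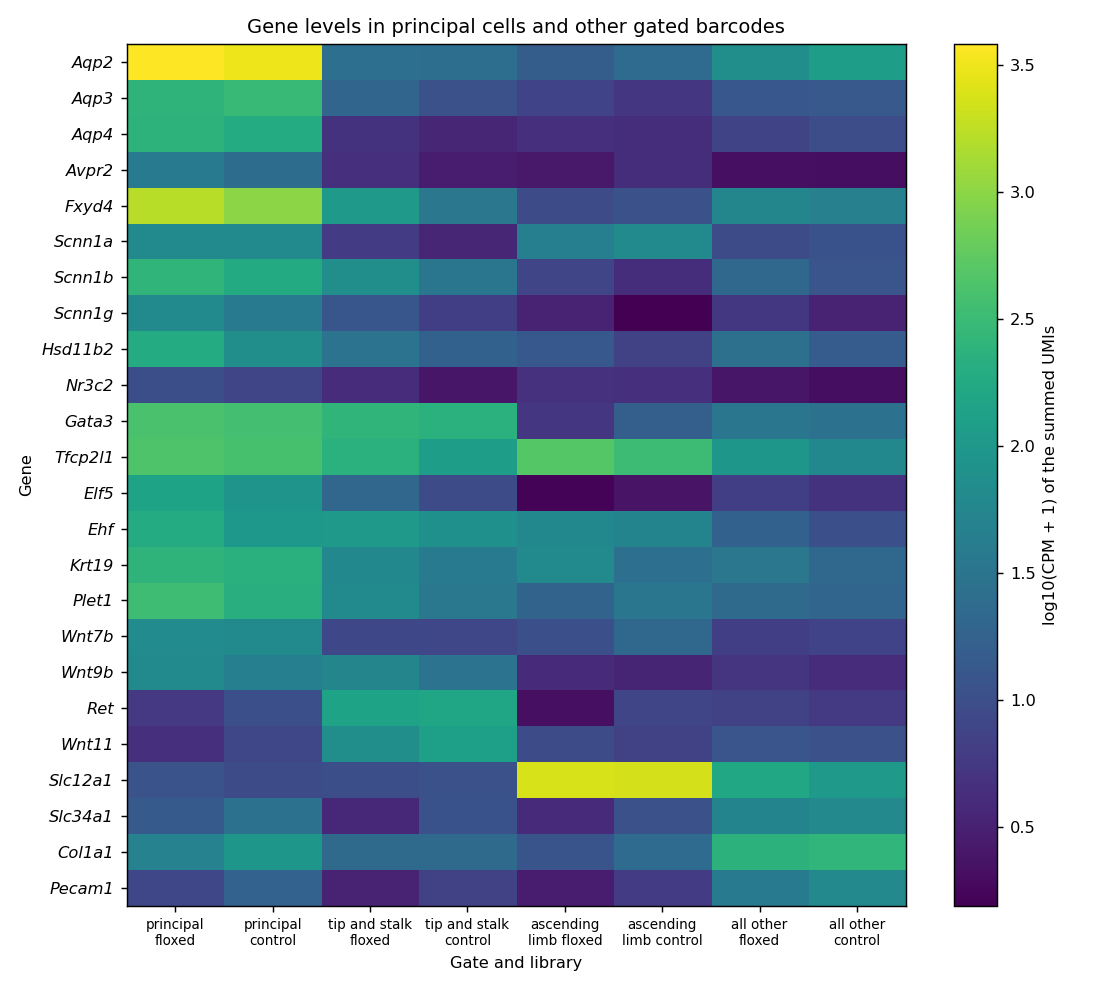
Heat map of gene levels, as log10(CPM + 1) of summed UMIs, with genes down the page and gates by library across it, floxed left of control. Aqp2 stands at 3824 and 3107 CPM in principal cells and at 73.2 and 119 CPM in all other barcodes.

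Principal cells made up 3.40% of kept barcodes in floxed (Clopper-Pearson 95% interval 3.12 to 3.70) and 2.49% in control (2.28 to 2.71), a ratio of 1.37 (1.21 to 1.55). Before the gate's last limit, on Atp6v1g3, 579 floxed and 644 control barcodes remained. That limit removed 47 and 117 of them, and its part in the ratio was not tested. The share also depends on what it is set against. Among ureteric-lineage gates alone (principal, tip and stalk, intercalated), it was 64.6% in floxed and 65.1% in control. Other gates differed too: podocytes made up 0.658% and 2.03% of kept barcodes, nephron progenitors 2.56% and 4.19%, and thick ascending limb 2.19% and 1.02%, in floxed and control. Their part in the principal cell share was not tested.

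Clustering the members of both libraries together gave 10 sub-clusters, described by their leading genes. Sub-cluster 1 held 7 floxed and 200 control barcodes and sub-cluster 2 held 186 and 7, so these are close to the libraries themselves. Sub-cluster 3 (136 floxed, 44 control) was led by Atp6v0d2 and Foxi1, a proton pump subunit and a transcription factor of intercalated cells, with Hsd11b2 among its leading genes. Atp6v0d2 was found in only 20.6% of its barcodes and Foxi1 in 28.9%, while the gate gene Hsd11b2 was found in 85.6%. Sub-cluster 5 (30 and 69) was led by mitotic genes such as Nusap1 and Cenpf. In sub-cluster 6 (64 and 29) the first genes were Tff3, Fcgbp, Upk3a and Ctse, but Tff3, Fcgbp and Upk3a came from few barcodes. All Tff3 UMIs of this sub-cluster came from 1 barcode, as did 80.8% of those of Fcgbp and 55.3% of those of Upk3a. Upk3a was found in 22.6% of its barcodes, while Ctse was found in 82.8%. Sprr2f reached 2320.1 CPM in sub-cluster 6.

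The remaining sub-clusters 4, 7, 8, 9 and 10 held 109 floxed and 178 control barcodes and were led by genes known from other cells. In sub-cluster 4 the first genes were those of neutrophils and renin, but from few barcodes: Ngp was found in 2.4% of them and Ren1 in 19.2%. Further down, the stroma gene Pdgfra was found in 61.6% of its barcodes, Penk in 76% and Acta2 in 77.6%. Sub-cluster 7 was led by endothelial genes such as Plvap, 8 by podocyte genes such as Podxl, and 10 by proximal tubule and macrophage genes. Sub-cluster 9 (5 and 31) was led by Defb1, Trpv5 and S100g, of which Trpv5 is the calcium channel of the distal and connecting tubule. Without all of them, 423 floxed and 349 control barcodes remained, a set chosen after the data were seen. Where a list's count of called genes differed in that set, the count is given below.

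**Figure D2:**
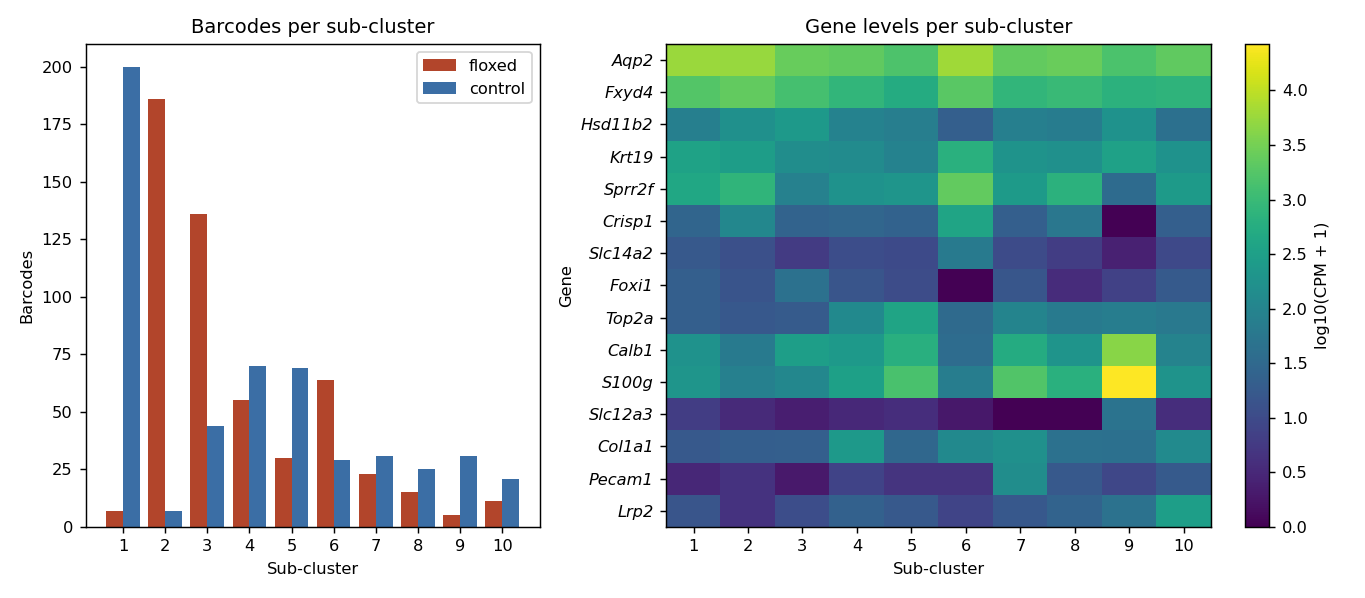
Left, barcodes per sub-cluster of principal cells, floxed left of control; right, gene levels per sub-cluster over both libraries, as log10(CPM + 1). Sub-clusters 1 and 2 come almost wholly from 1 library each, and Calb1 and S100g are highest in sub-cluster 9.

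With no replicates, genes were called by size. A call needed 25 CPM or more in either library and a floxed over control ratio whose 95% counting interval lay wholly beyond 1.5-fold. Of 5712 genes at that level, 184 were higher in floxed principal cells (3.22%) and 128 were lower (2.24%). Without sub-clusters 4, 7, 8, 9 and 10 the counts were 177 and 116 of 5635. In all other barcodes 1.93% of genes were higher and 2.02% lower. Of the 184 higher genes, 50 had the same call in all other barcodes and 180 the same sign; of the 128 lower genes, 43 had the same call and 110 the same sign. The difference in log2 ratio between principal cells and all other barcodes was itself beyond 1.5-fold for 53 genes above (0.928%) and 62 below (1.09%).

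**Figure D3:**
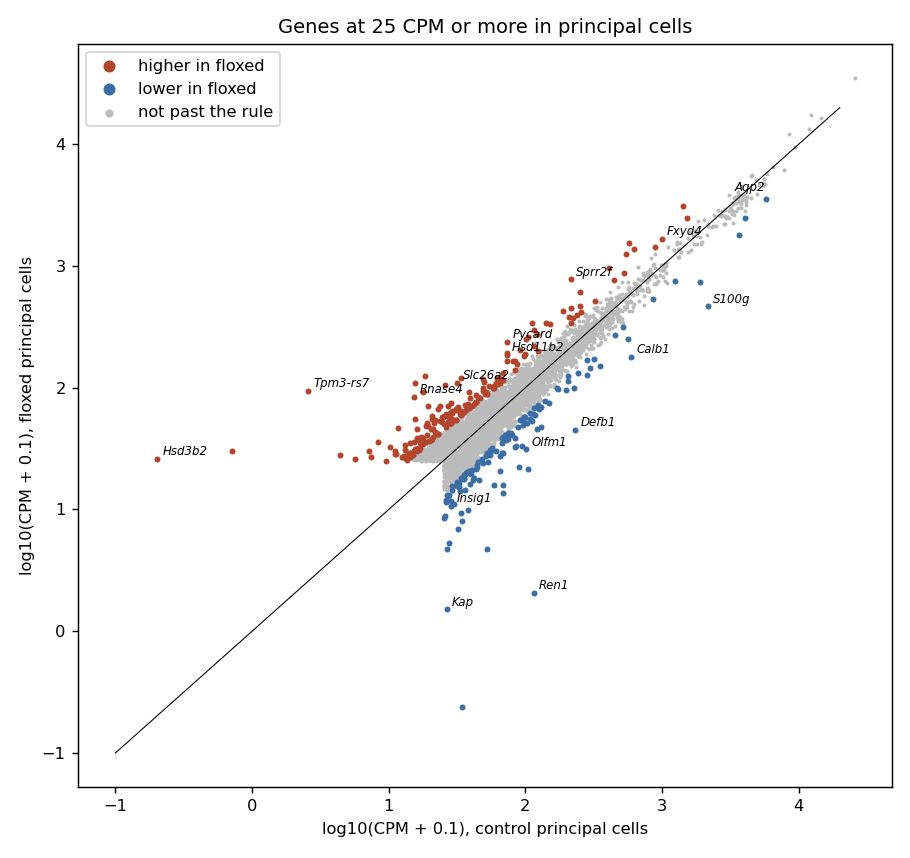
Summed levels of genes at 25 CPM or more in principal cells, floxed on the vertical axis and control on the horizontal axis, both as log10(CPM + 0.1), with the line of equality. Red points are the 184 genes higher and blue points the 128 genes lower in floxed; named genes are labelled in part.

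Counts and medians of the gene lists leave out the gate genes, and only a gene at 25 CPM or more could be called. Every list count stands beside the shares over all genes tested, 3.22% higher and 2.24% lower. Without sub-clusters 4, 7, 8, 9 and 10 those shares were 3.14% and 2.06%. Where few genes of a list could be called, a share of the list says little. Of 17 listed genes of the water pathway, 6 could be called. Of these, 0 were higher or lower, against 3.22% and 2.24% of the 5712 genes. Avpr2, the vasopressin receptor, was at 39.5 CPM in floxed and 23.2 CPM in control, a ratio of 1.70 (1.43 to 2.04). Aqp4 was at 244 and 189 CPM. Aqp3 was at 249.98 CPM in floxed and 308 CPM in control. The list's median log2 ratio was 0.14, beside −0.02 over all genes tested.

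Among 19 genes of sodium and potassium transport, 14 could be called, of which 1 was higher and 1 was lower in floxed, with a median log2 ratio of 0.42. Fxyd3, a modulator of the sodium pump, was the higher one, at 32.7 CPM in floxed and 10.0 CPM in control, 3.26-fold (2.56 to 4.17). The lower one was Fxyd2, a sodium pump subunit abundant in the thick ascending limb, at 146 and 296 CPM. Without the sub-clusters of other cells' genes, 3 were higher and 0 lower: Fxyd2 no longer passed (90.9 and 139.8 CPM), and the higher genes included Fxyd3 (34.4 and 13.4 CPM) and Ptges (76.8 and 43.1 CPM). The sodium channel subunits did not pass: Scnn1a was at 63.7 CPM in floxed and 63.4 CPM in control, Scnn1b at 258 and 183 CPM, and Scnn1g at 62.3 and 38.8 CPM.

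The gate gene Hsd11b2 (chromosome 8, 105518746 to 105523988) was at 186 CPM in floxed and 72.6 CPM in control, given as a description. All other barcodes differed the same way, at 27.1 and 14.2 CPM. Of 10 other genes of the corticosteroid response, 6 could be called and 0 were. Sgk1, the aldosterone-induced kinase, was at 322 CPM in floxed and 203 CPM in control. It was the 1 gene called higher without the sub-clusters of other cells' genes, at 346 and 203 CPM, 1.70-fold (1.58 to 1.83). The level of the mineralocorticoid receptor gene Nr3c2 was 9.16 CPM in floxed and 6.97 CPM in control.

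Among 22 collecting duct transcription factors, 18 could be called, of which 1 was higher and 0 were lower. Ehf, an epithelial ETS factor, was at 189 CPM in floxed and 99.5 CPM in control, 1.90-fold (1.75 to 2.06). In all other barcodes Ehf was at 16.8 and 9.33 CPM, and the difference in log2 ratio from them was 0.08 (−0.08 to 0.24). Tfcp2l1, which is needed for both principal and intercalated cells, was at 449 and 387 CPM, and Elf5, a principal cell factor, at 142 and 88.5 CPM; neither passed. Ehf was still higher without the sub-clusters of other cells' genes, and Sox9, a factor of the ureteric tip, was lower at 23.0 CPM in floxed and 46.3 CPM in control.

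The limit on Atp6v1g3 in the gate removed 47 floxed and 117 control barcodes. Of 13 other intercalated cell genes, 3 could be called and 2 of these were higher in floxed. Rhcg, an ammonia transporter, was at 221 CPM in floxed and 115 CPM in control, 1.92-fold (1.77 to 2.07). Atp6v1b1, a proton pump subunit, was at 53.8 and 21.7 CPM, 2.48-fold (2.09 to 2.95). Both also passed without the sub-clusters of other cells' genes. In all other barcodes the log2 ratios were 0.88 for Rhcg and 0.84 for Atp6v1b1. In the Notch list, which sets principal against intercalated fate, 6 of 15 genes could be called and 1 was lower: Notch1 was at 29.2 CPM in floxed and 52.7 CPM in control.

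Of 10 genes of the connecting and distal tubule list, 3 could be called and 2 of these were lower, against 2.24% of all genes tested. The list's median log2 ratio was −1.18. Of its 7 members at 5 CPM or more, 6 had a log2 ratio under 0 and 1 above. Slc8a1 was the 1 above, at 22.3 CPM in floxed and 13.6 CPM in control. Calb1, which buffers calcium in these segments, was at 179 CPM in floxed and 592 CPM in control, 3.32-fold lower (3.12 to 3.53). S100g, another calcium-binding protein, was at 465 and 2162 CPM, 4.65-fold lower (4.48 to 4.82). In floxed, 40.5% of the S100g UMIs came from 1 barcode; without the top barcode of each library the values were 278 and 2042 CPM. Without the sub-clusters of other cells' genes both stayed lower, Calb1 at 127 and 386 CPM and S100g at 100.4 and 628 CPM.

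These differences were spread unevenly over the sub-clusters. In sub-cluster 9, S100g was at 26685 CPM in floxed and 26641 CPM in control, so the level there was close, while the barcodes numbered 5 and 31. In sub-cluster 5 S100g was at 107.5 CPM in floxed and 1845 CPM in control. Sub-cluster 3 had more S100g in floxed, 137 CPM, against 71.5 CPM in control. The intercalated gate differed the same way as principal cells: S100g was at 2161 CPM in floxed and 5507 CPM in control (log2 ratio −1.35), and Calb1 had a log2 ratio of −1.33. That gate set no limit on Aqp2, and held Aqp2 at 1942 and 3159 CPM and Fxyd4 at 1152 and 1069 CPM. It is therefore not free of principal cell RNA, which holds wherever that gate is used here. In the ureteric tip and stalk gate, S100g was higher in floxed, at 345 CPM against 121 CPM in control. Calb1 was not called there, at 1531 CPM in floxed and 1167 CPM in control (log2 ratio 0.39). That was its highest level in any gate of either library, so Calb1 was not particular to connecting and distal tubule cells here. In the intercalated gate 2.16% of genes were called higher and 1.71% lower. Higher calls made up 1.49% of genes in the tip and stalk gate and 1.3% in the thick ascending limb gate, and lower calls 1.63% in the stroma gate.

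**Figure D4:**
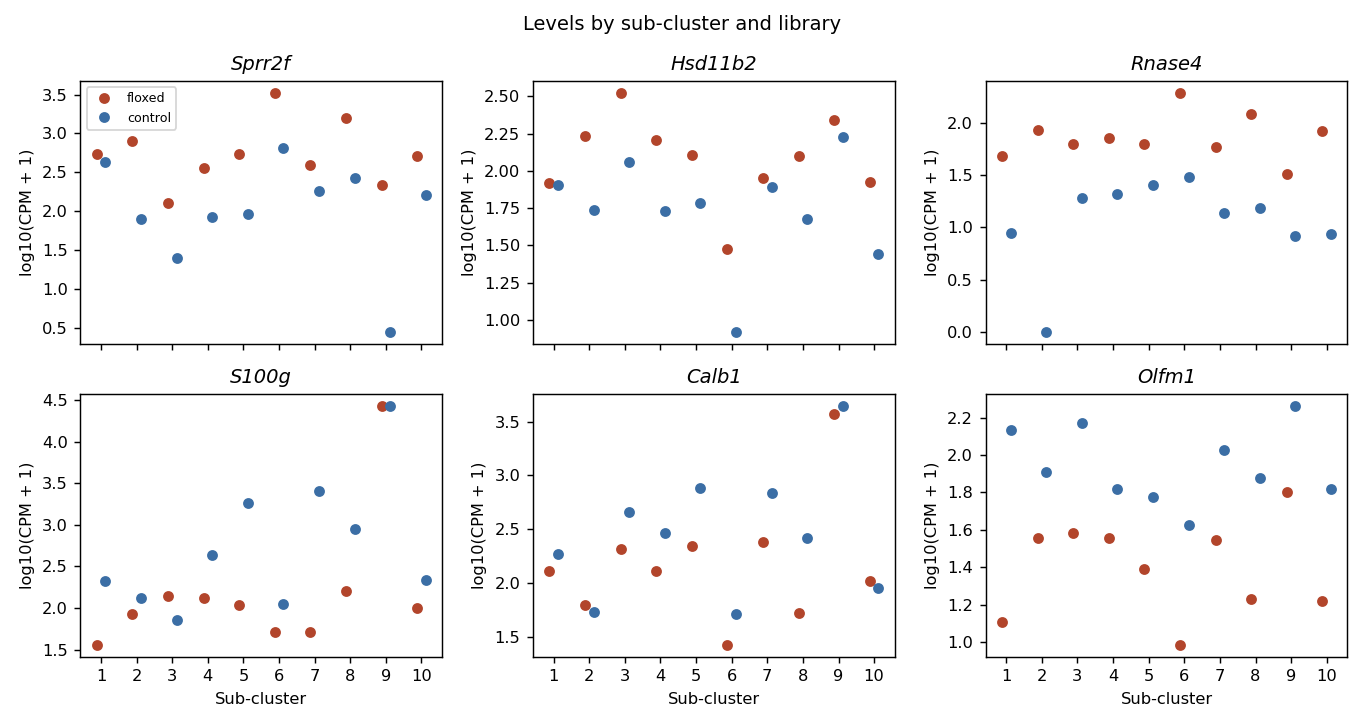
Levels of 6 genes in each sub-cluster, as log10(CPM + 1), floxed left of control. S100g is close between libraries in sub-cluster 9 (26685 and 26641 CPM), and Sprr2f in sub-cluster 6 is at 3312.5 and 643 CPM.

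The highest ratios after leaving out free RNA and gene classes that cannot be read were led by Hsd3b2, a steroid dehydrogenase, at 25.9 CPM in floxed and 0.102 CPM in control, where 1 UMI was counted. Its close copies make the assignment uncertain, as is true of Tpm3-rs7 and Eif3j2, also among the highest 15. Hsd3b2 was higher in all other floxed barcodes too (log2 ratio 5.82). Rnase4, a secreted ribonuclease whose gene overlaps Ang so that reads may be split between them, was at 84.0 CPM in floxed and 15.3 CPM in control, 5.50-fold (4.59 to 6.63). Its log2 ratio of 2.46 was above that of all other barcodes by 1.10 (0.83 to 1.36). The intercalated gate had a larger one, 3.43 (185 CPM in floxed and 17.1 CPM in control), and the tip and stalk gate 2.18, from which principal cells differed by 0.28 (−0.33 to 0.89).

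Sprr2f, a small proline-rich protein of epithelial barriers, was at 774 CPM in floxed and 214 CPM in control, 3.62-fold (3.44 to 3.81). It was uneven between cells: 240 floxed and 161 control members had a UMI. In sub-cluster 6 its level was 3312.5 CPM in floxed and 643 CPM in control. The tip and stalk gate was also higher, at 83.3 CPM in floxed and 2.26 CPM in control. Crisp1 was at 105 and 25.5 CPM.

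Slc26a2, a sulfate transporter, was at 109 CPM in floxed and 31.7 CPM in control, 3.45-fold (3.02 to 3.94). All other barcodes had a log2 ratio of 0.02 for it, and the difference was 1.76 (1.55 to 1.98). In the intercalated gate its log2 ratio was 0.88, from which principal cells differed by 0.91 (0.50 to 1.32). Pycard, the adaptor of the inflammasome, was at 237 and 73.7 CPM. Smoc2, a secreted matrix protein, and Ckmt1, the mitochondrial creatine kinase, were also among the highest 15.

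Of the 15 lowest ratios, Ren1 (renin) and Kap (a kidney androgen-regulated protein) were high in single barcodes: 79.1% of the control UMIs of Ren1 and 86.0% of those of Kap came from 1 barcode. Without the top barcode of each library, Ren1 was at 1.69 CPM in floxed and 24.1 CPM in control, 14.2-fold lower (8.00 to 27.9), and Kap at 1.13 and 3.69 CPM, on 8 and 36 UMIs. Both were then under 25 CPM and could not be called. A Ren1 UMI was found in 13 floxed and 133 control members. Ren1 was lower in floxed outside principal cells too. All other barcodes held 28.4 CPM in floxed and 97.7 CPM in control (log2 ratio −1.78), and the stroma gate 7.67 and 121 CPM. No gate of renin cells was made, so the free RNA rule had none to set Ren1 against. Olfm1, a secreted glycoprotein, was at 31.0 CPM in floxed and 101 CPM in control, 3.27-fold lower (2.82 to 3.80). All other barcodes had a log2 ratio of 0.07 for it, but the intercalated gate had −2.29, at 35.1 CPM in floxed and 172 CPM in control. Col26a1, a collagen, was at 33.3 and 94.2 CPM. Genes of sterol metabolism stood among the lowest: Insig1 at 10.6 and 28.5 CPM and Msmo1 at 32.7 and 83.2 CPM.

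Fewer floxed principal cells were called cycling. After thinning each cell to 2000 UMIs, at least 3 UMIs of the proliferation list were found in 6.03% of floxed cells (4.16 to 8.40, 32 of 531) and 13.2% of control cells (10.4 to 16.4, 69 of 522). Thinning left out 1 floxed and 5 control cells. Unthinned, the shares were 35.5% and 54.6%. Of 20 proliferation genes, 11 could be called, of which 3 were lower and 0 higher, namely Birc5, Nusap1 and Tpx2, with a median log2 ratio of −0.68; without the sub-clusters of other cells' genes 5 were lower, with Mki67 and Top2a added. In all other barcodes the list was lower in floxed too, with a median log2 ratio of −0.41 and sums of 1191 CPM in floxed and 1548 CPM in control. Birc5, a mitotic survivin, was at 35.1 CPM in floxed and 67.3 CPM in control in principal cells.

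The Tet genes are the floxed genes, and 3′ tags outside a deleted part do not check a deletion. Tet3 was at 70.6 CPM in floxed and 85.1 CPM in control, and Tet2 at 24.9 and 34.1 CPM; neither passed. Among 15 DNA methylation enzymes 11 could be called and 1 was lower, Tdg, which removes oxidised methylcytosine, at 28.9 and 68.6 CPM. Tdg was lower in all other barcodes too, at 36.4 and 69.6 CPM.

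**Figure D5:**
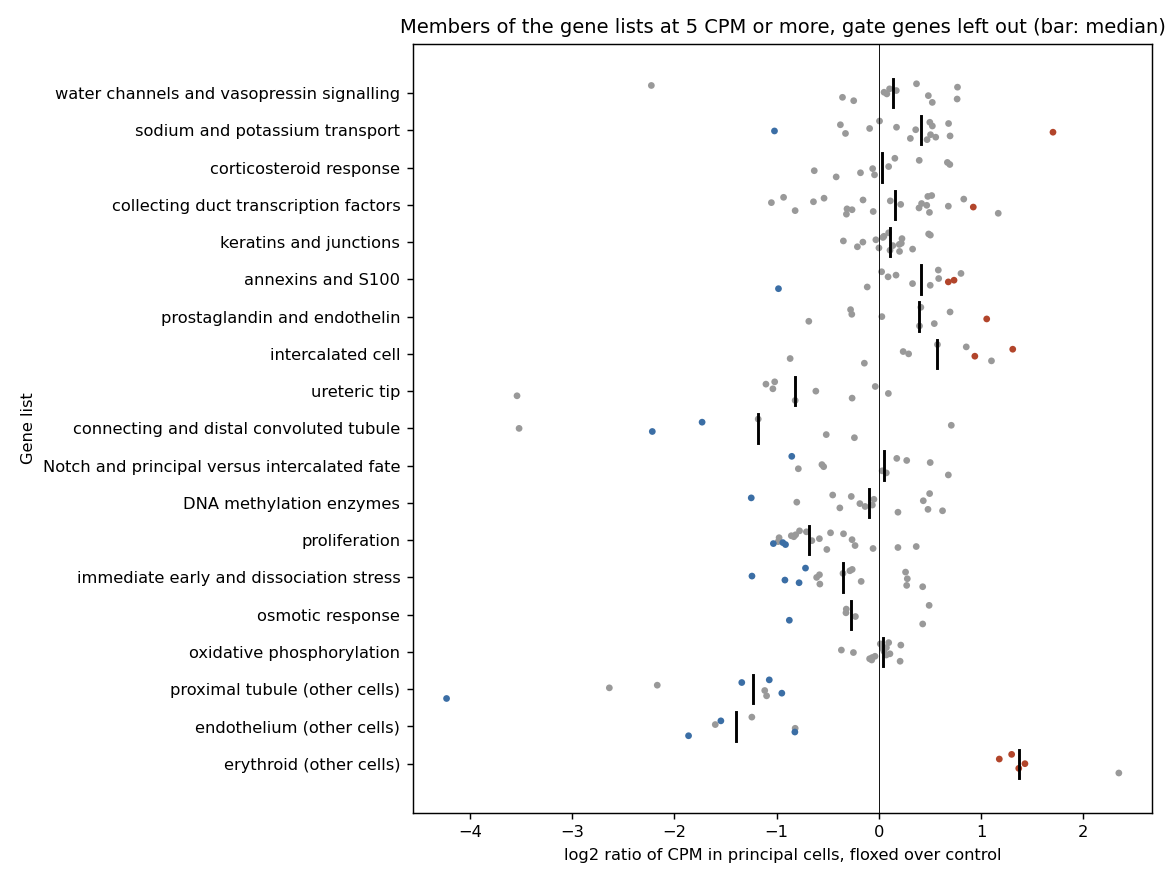
Log2 ratio, floxed over control, of members of the gene lists at 5 CPM or more in principal cells, without the gate genes, 1 point per gene and a bar at each median. Red points are higher and blue points lower by the size rule; the connecting and distal tubule list has a median of −1.18 and the proliferation list one of −0.68.

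Some lists hardly differed. Of 17 keratin and junction genes 15 could be called and 0 were, with a median log2 ratio of 0.11. The same was true of 16 of 16 oxidative phosphorylation genes (0.04) and 14 of 17 glycolysis and hypoxia genes (−0.00010). Hk2, a hexokinase, was lower without the sub-clusters of other cells' genes, at 7.79 CPM in floxed and 25.1 CPM in control. Among 13 annexins and S100 proteins, of which 12 could be called, S100a1 and S100a6 were higher and Myof was lower. S100a6 was at 519.5 CPM in floxed and 324 CPM in control. Without the sub-clusters of other cells' genes S100a6 no longer passed and Anxa3 did (54.0 and 28.0 CPM). Of 10 prostaglandin and endothelin genes 5 could be called and 1 was higher, Hpgd, which breaks down prostaglandins, at 81.7 CPM in floxed and 39.3 CPM in control. In the set without the sub-clusters of other cells' genes 3 were higher and 1 lower. Hpgd was joined by Ptges, a prostaglandin E synthase, and the endothelin receptor Ednrb (69.2 and 36.5 CPM), while endothelin itself, Edn1, was lower at 14.4 CPM in floxed and 28.8 CPM in control.

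Of 12 genes of the ureteric tip list 3 could be called and 0 were, with a median log2 ratio of −0.82. Dusp6 was lower without the sub-clusters of other cells' genes, at 16.2 CPM in floxed and 31.6 CPM in control. Ret, the receptor that defines the tip, was at 4.65 CPM in floxed and 9.42 CPM in control, while the tip and stalk gate held 142 and 159 CPM. Among 8 osmotic response genes 6 could be called and 1 was lower, the chaperone Hspa4l, at 20.2 and 37.0 CPM. In the tubule injury list, where 7 of 11 genes could be called, Lcn2 was higher, at 38.6 and 17.8 CPM with 44.2% of its floxed UMIs from 1 barcode, and Spp1 was lower, at 98.8 and 226 CPM. Without the sub-clusters of other cells' genes neither passed, with Lcn2 at 17.1 CPM in floxed and 16.1 CPM in control and Spp1 at 90.9 and 90.8 CPM, and Sox9 was the 1 lower gene.

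Of 15 immediate early genes, which dissociation can induce, 4 were lower and 0 higher: Fos was at 754 CPM in floxed and 1240 CPM in control, and Egr3, Nr4a1 and Zfp36 were the others. All other barcodes had log2 ratios of −0.79 for Fos and −1.15 for Nr4a1. In the interferon list 2 of 12 genes could be called and both were lower, Bst2 at 15.6 and 58.6 CPM and Rsad2 at 7.89 and 34.1 CPM. The list's median log2 ratio was −1.69 in principal cells and −1.97 in all other barcodes, which summed to 153 CPM in floxed and 407 CPM in control. Over both libraries, Rsad2 was at 238 CPM in the endothelium-led sub-cluster 7 and at 9.82 CPM in the other members. Without the sub-clusters of other cells' genes 6 immediate early genes and 1 interferon gene were lower.

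Markers of other cells differed between the libraries as well. Haemoglobin and other red cell genes summed to 2879 CPM in floxed and 1125 CPM in control members, with 4 of 6 higher. Proximal tubule markers summed to 88.5 and 218 CPM with 4 of 8 lower, endothelial markers to 88.5 and 194 CPM with 3 of 6 lower, and stroma markers to 284 and 474 CPM with 3 of 7 lower. In each of these lists 4 genes could be called. Without sub-clusters 4, 7, 8, 9 and 10, the proximal tubule, endothelial and stroma lists had 0, 0 and 1 lower gene of 1, 1 and 3 that could be called, and 4 red cell genes were still higher. The part of free RNA in the other results was not tested. Of all listed genes, 1 was at 0 in both libraries, the urothelial keratin Krt5.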

How the data were processed

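The authors deposited whole-number UMI counts per gene and barcode, 1 matrix per library, not normalised. Per the submitters' processing notes, Cell Ranger 6.0.2 and mm10 were used; the writing version is 6.0.1, per the file headers. The matrices hold 31053 genes. The labels give 10000 cells loaded per library and 3′ version 3 chemistry, so barcodes (22543 floxed, 25736 control) exceed the cells loaded.

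Members and gene lists were chosen with earlier results of these data known. UMIs of the members were summed per library. Ratios have an exact conditional binomial 95% interval, and differences between gates a Poisson one. Named genes are gate genes, list members, the 15 leading genes and the 15 highest and 15 lowest ratios, without genes under 0.2 of their level in another gate. List counts leave out gate genes, a choice added later, and list medians use members at 5 CPM or more. Sub-clusters used Leiden clustering (1000 variable genes, 15 components, 15 neighbours, resolution 0.5) in scanpy 1.11.5. Doublets were kept in the main result. The automatic threshold of scrublet marked 0 barcodes in both libraries and had not worked, so an alternative removed the 8% with the highest scores. That alternative left out 15.8% of floxed and 15.2% of control members. It left out 41 of 55 floxed and 42 of 70 control barcodes of sub-cluster 4. Of sub-cluster 7 it left out 16 of 23 and 20 of 31, and of sub-cluster 9, 0 in both libraries. The size rule was tried only on simulated Poisson counts without spread between cells or animals. Its interval assumes the same, so that run cannot show how the rule fares with such spread. Python 3.11.15 and edgeR 4.0.16 (scaling factors only) were used. The bisulfite samples were not analysed here, and some genes that the naming rule picks are not reported.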

Additional observations from a re-analysis of the deposited data

Results flagged for a closer look

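Some genes were called one way in principal cells and the opposite way in another gate. With 1 library per genotype, none of these differences was tested across animals. Kap had a log2 ratio, floxed over control, of −4.23 in principal cells, and 1.44 in all other barcodes; without the top barcode of each library it was −1.71 in principal cells, at 1.13 CPM in floxed and 3.69 CPM in control. S100g had −2.22 in principal cells, against 1.51 in the ureteric tip and stalk gate and 0.97 in the thick ascending limb gate; the intercalated gate had −1.35. Spp1, the secreted phosphoprotein osteopontin, had −1.19 in principal cells and 1.36 in the tip and stalk gate, with −2.41 in the intercalated gate. S100a6 had 0.68 in principal cells and −0.67 in the stroma gate.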

How the results depend on the processing

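No paired analysis was possible because each genotype had 1 library. The log2 ratio of the principal cell share was 0.45 as reported, 0.25 at 500 UMIs and 250 genes per barcode, 0.96 without cells called cycling on unthinned counts, which drops 35.5% of floxed and 54.6% of control members, 0.56 without those called cycling after thinning (added after seeing the data), 0.71 without sub-clusters 4, 7, 8, 9 and 10 (added after seeing the data), 0.71 with the gate on thinned counts, and −0.011 among ureteric-lineage gates. Higher and lower genes numbered 84 and 65 after thinning to 2000 UMIs, 282 and 212 at 10 CPM, 122 and 80 at 50 CPM, 426 and 400 with no minimum and 57 and 38 beyond 2-fold. Differences from other cells (115 as reported) numbered 187, 337 and 29 at 10 CPM, no minimum and 2-fold. With edgeR scaling factors, 192 genes were higher and 123 lower. Without cells called cycling on unthinned counts the log2 ratios turned for Slc34a1 (0.093), Hba-a1 (−0.32), Hba-a2 (−0.27), Hbb-bs (−0.10) and Hbb-bt (−0.42); Spp1 turned to 0.0016 without sub-clusters 4, 7, 8, 9 and 10. The cause was not tested. Of 73 named or listed genes past the rule, 67 never turned and 21 passed under every alternative that gave a value.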

Other observations

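Genes of cholesterol synthesis were listed after their values were seen, so their counts are a description and no test. Of 23 genes, 14 could be called, of which 5 were lower and 0 higher by the size rule, against 2.24% and 3.22% of all genes tested. At 5 CPM or more, 17 of 21 had a log2 ratio under 0, against 5500 of 10750 over all genes. Hmgcs1, an early enzyme of the pathway, was at 68.2 CPM in floxed and 116 CPM in control, and Sqle, the squalene epoxidase, at 18.0 and 41.8 CPM. The other 4 had a log2 ratio above 0, among them Ebp, a late enzyme, at 41.7 CPM in floxed and 26.9 CPM in control, and Pmvk at 70.6 and 49.9 CPM. The median log2 ratio was −0.60 in principal cells, 0.02 in all other barcodes, 0.01 in the tip and stalk gate and −0.07 in the stroma gate.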
